A study of Mus musculus with 2 samples.

Results

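The genes described here encode the machinery that copies DNA and the enzymes that supply its nucleotides. A list of 47 mouse genes was read through the probe sets whose platform annotation gives 1 gene symbol. Of these genes 46 were named on the array, out of 18193 named in all, and Chaf1a was not analysed here. They were compared between 2 arrays, 1 of T helper 2 (Th2) cells from Ecm1 knockout mice and 1 of Th2 cells from wild-type mice. The gene Ecm1 codes for a glycoprotein that cells secrete into their matrix. Both groups were C57BL/6, described as female and grown to 6 weeks. Their spleen CD4 cells were selected with an anti-CD4 antibody and magnetic columns. They were then kept for 4 days on plate-bound anti-CD3 (3 µg/ml) with soluble anti-CD28 (2 µg/ml), IL-4 (10 ng, the volume being garbled in the label) and antibodies at 10 µg/ml each to interferon-γ and interleukin-12. The construction of the knockout allele and the number of mice behind each array were not given in the sources used here. With 1 array per group no difference below has a replicate check, and no test between groups was possible.

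DNA replication begins with licensing: the origin recognition complex, Cdc6 and Cdt1 load the ring-shaped Mcm2-7 helicase onto origins in G1. In S phase the kinase Cdc7 with its activator Dbf4, together with Cdc45, the GINS complex and Mcm10, turns the loaded rings into running helicases. Polymerase α with primase starts each strand, replication factor C loads the sliding clamp Pcna, and polymerases ε and δ extend the leading and lagging strands. Ribonucleotide reductase, thymidylate synthase, thymidine kinase and dUTPase supply the deoxynucleotides. In a resting T cell many of these genes are held low by Rb family proteins bound to E2F factors, and stimulation through CD3 and CD28 switches them on as the cell enters division.

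Because many replication genes are textbook E2F targets, the promoter sequences of 4 of them are shown first. They are the 4 members with the largest difference between the arrays that hold an E2F match. Each window runs from 250 bases before to 50 bases after a transcription start in RefSeq (GRCm38.p6), is printed 5′ to 3′ on the gene's strand, and has the match in capitals. The windows lie at chr4:108579204-108579503 (plus strand, Orc1), chr11:98907901-98908200 (plus strand, Cdc6), chr8:75109259-75109558 (plus strand, Mcm5) and chr5:151651159-151651458 (minus strand, Rfc3).
Orc1: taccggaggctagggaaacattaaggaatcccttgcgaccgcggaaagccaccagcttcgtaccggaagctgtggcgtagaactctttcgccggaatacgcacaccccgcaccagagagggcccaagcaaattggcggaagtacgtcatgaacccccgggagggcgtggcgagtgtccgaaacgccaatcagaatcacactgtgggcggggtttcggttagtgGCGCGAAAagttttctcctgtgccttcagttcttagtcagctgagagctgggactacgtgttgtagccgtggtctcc
Cdc6: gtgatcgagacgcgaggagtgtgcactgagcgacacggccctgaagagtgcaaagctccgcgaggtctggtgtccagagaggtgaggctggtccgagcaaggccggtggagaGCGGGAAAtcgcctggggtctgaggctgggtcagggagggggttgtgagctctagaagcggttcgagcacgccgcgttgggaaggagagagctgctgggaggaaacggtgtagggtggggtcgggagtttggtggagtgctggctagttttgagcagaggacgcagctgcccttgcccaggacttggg
Mcm5: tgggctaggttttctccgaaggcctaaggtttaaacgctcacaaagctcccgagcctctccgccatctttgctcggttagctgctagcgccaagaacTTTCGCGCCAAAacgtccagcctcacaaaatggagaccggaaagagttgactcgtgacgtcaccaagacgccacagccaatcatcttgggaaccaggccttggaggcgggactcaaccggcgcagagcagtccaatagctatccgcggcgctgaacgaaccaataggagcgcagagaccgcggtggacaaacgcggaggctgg
Rfc3: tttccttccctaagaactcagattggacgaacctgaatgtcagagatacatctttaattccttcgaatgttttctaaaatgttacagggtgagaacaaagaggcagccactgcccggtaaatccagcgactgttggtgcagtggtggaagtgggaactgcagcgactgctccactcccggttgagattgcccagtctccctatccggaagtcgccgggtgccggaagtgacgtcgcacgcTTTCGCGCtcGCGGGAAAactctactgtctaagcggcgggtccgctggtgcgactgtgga

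In Orc1 the match began 27 bases before the start, and in Cdc6 138 bases before it. Mcm5 held 2 overlapping matches on opposite strands, beginning 153 and 149 bases upstream. Rfc3 held 2 as well, 1 beginning 10 bases upstream and 1 at the start itself. The letters searched, on both strands, were TTTCGCGC, TTTGGCGC, TTTCCCGC and TTTGCCGC for E2F, CCAAT for the CCAAT box, and TTTGAA and TTCGAA for the cell cycle homology region (CHR). Some of the E2F words overlap each other when read on opposite strands.

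RefSeq windows were at hand for 39 members. An E2F match stood in 13 of the 39 (33.3%), against 418 of 8308 genes measured on both arrays (5.03%) and 704 of all 27025 genes in the table (2.6%). By role, 7 of 10 licensing genes had one (Orc1, Cdc6, Cdt1, Mcm3, Mcm5, Mcm6 and Mcm7), as did 3 of 6 polymerase and primase genes (Pola1, Pold1 and Pole2). None of the 5 nucleotide enzyme genes had these letters in its window, which says nothing of E2F binding there. CCAAT stood in 24 of the 39 members (61.5%, against 43.1% of measured genes and 41.1% of all genes in the table). The CHR letters stood in 9 (23.1%, against 16.4% of measured genes and 21.7% of all genes). Of 28 mitosis and spindle genes, by comparison, 1 had the E2F letters (3.57%) and 21 the CHR letters (75.0%). A match is a stretch of letters and was not tested as a binding site.

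**Figure D1:**
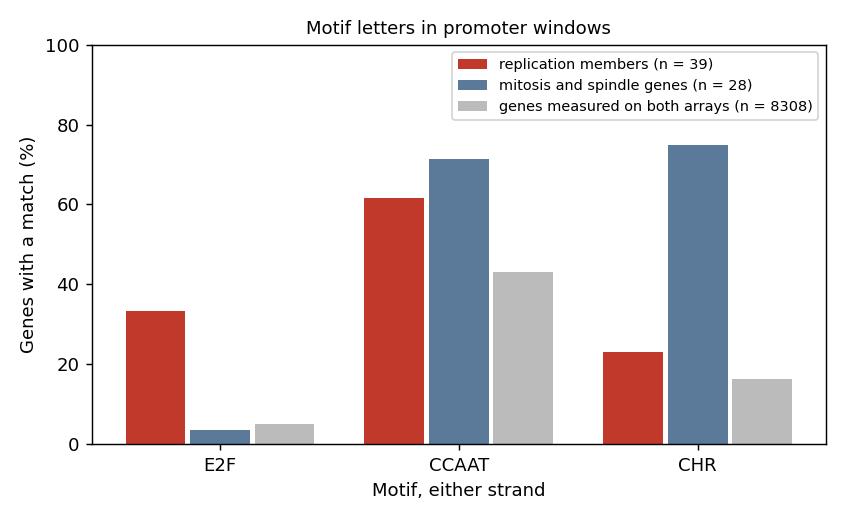
Share of genes (%) whose promoter window holds the letters of each motif on either strand, for the 39 replication members with a window, 28 mitosis and spindle genes and 8308 genes measured on both arrays. E2F letters stood in 33.3% of the members and in 3.57% of the mitosis genes, CHR letters in 23.1% and 75.0%.

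Signals are given as deposited, in linear intensity units, and each gene is represented by its brightest probe set. A signal under the median of its array (65.5 on the knockout array, 69.2 on the wild-type array) was treated as below the floor, and a gene at or above it on both arrays is called measured. Differences are log2 knockout minus wild type, centred on the median probe set, which lay at -0.10 before centring. The arrays correlated at r = 0.94 across 20834 probe sets. Ecm1 itself read 19.3 on the knockout array, under the floor, and 29114.7 on the wild-type array.

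Replication genes read higher on the knockout array across every role, from origin licensing to nucleotide supply. Of the 47 members 45 were measured on both arrays, and all 45 differences lay above 0 (44 of 45 after quantile normalization, where Rpa1 was at -0.011), against 53.1% of all 10144 measured genes. With all probe sets of a gene averaged, dim ones included, 38 of 42 lay above 0, and Rrm1 (-0.51), Chaf1b (-0.055), Slbp (-0.038) and Cdt1 (-0.0087) did not. At least 2-fold higher were 17 of the 45 members (37.8%), against 7.15% of all measured genes. None was at least 2-fold lower, against 4.45% of all measured genes. At 1.5-fold the count was 40 of 45, against 18.3% of all measured genes. The median difference was 0.89 (1.86-fold), with a range of 0.18 to 2.19, and the median over all measured genes was 0.04. A tail of 5 genes (Fen1, Orc1, Cdc45, Cdc6 and Rfc4) lay at or above 1.78. Of these, Orc1 and Cdc45 were dim in wild type (94.5 and 176.0). Both were no longer measured when the floor was raised as an alternative, whereas Fen1, Cdc6 and Rfc4 were.

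**Figure D2:**
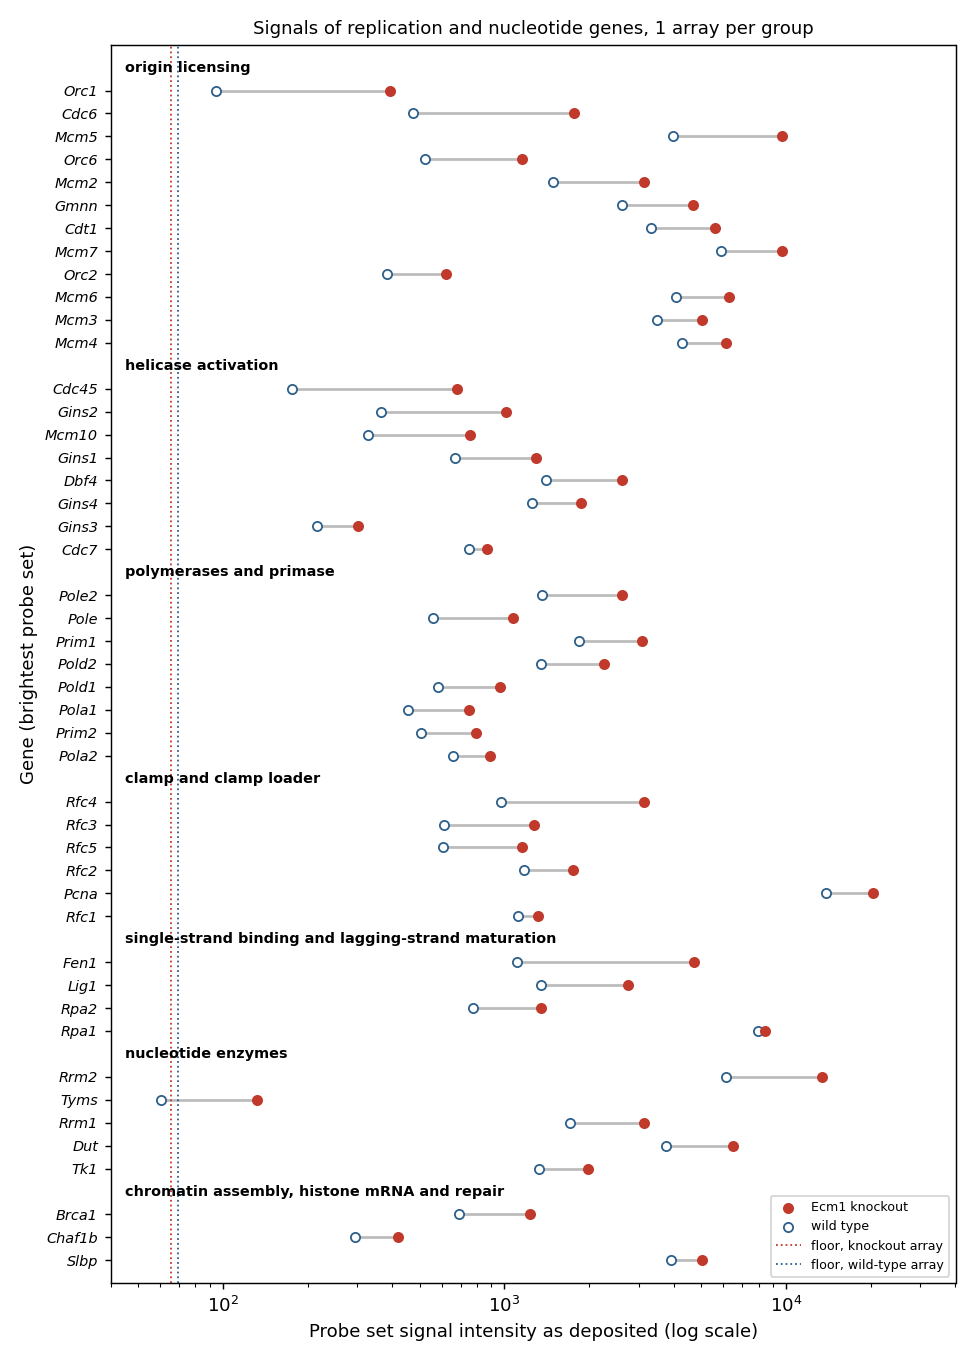
Signal intensity as deposited (log scale) of the brightest probe set of 46 genes, with the knockout array as filled points and the wild-type array as open points, grouped by role. Every knockout point lies to the right of its wild-type point, and the wild-type point of Tyms (60.4) alone lies under the floor lines.

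The cells behind the arrays differed in more than these genes. T cell markers read lower on the knockout array, with all 14 measured of 16 below 0 and differences from -2.64 to -0.52. At least 2-fold lower were 7 of the 14, against 4.45% of all measured genes. The summed signal of the T cell markers was 69973.0, against 135944.3 in wild type. CD8 T and natural killer markers had 5 of 9 measured genes at least 2-fold lower, against 4.45% of all measured genes. Gzmb lay at -0.34, and Eomes alone lay above 0 (0.35, but -0.76 in its other probe set). The summed signal of this list was 24770.3, against 52563.8. Most of that sum came from Gzma (8692.4 against 29033.8) and Gzmb (14331.3 against 19512.5). B cell markers had all 10 measured of 12 above 0, a median of 0.96 and a summed signal of 36730.8, against 18396.0, with Pax5 under the floor on both arrays. Plasma cell markers had all 7 measured of 8 above 0, a median of 1.53 and a sum of 98859.3, against 44559.2. Macrophage and monocyte markers summed to 7138.7, against 1459.8, with 7 of 16 measured on both arrays, 6 on the knockout array only, and Itgam, Mertk and Marco under the floor on both. Their largest knockout signals were Lyz2 (2796.2 against 275.5), Arg1 (1484.4 against 167.7) and Chil3 (1039.5 against 78.0), which carry most of that sum. The median over the 7 measured was 1.12, and the sums take in signals under the floor. Activated B-lineage cells divide and express the same replication genes, and the part of these populations in the replication result was not tested. In RNA from a mixed culture, fewer cells of a type and less RNA per cell cannot be told apart. Although the sample descriptions name liver, none of 9 hepatocyte genes was measured on both arrays. The knockout array also read 2214.4 for the Y-linked Eif2s3y, against 25.0 in wild type. The Y-linked Kdm5d read 410.0 against 20.3 and Uty 104.8 against 44.5, all 3 being under the floor in wild type. Xist, the transcript of the inactive X, read 8715.3 against 19739.9. These Y-linked signals contradict the description as female for the knockout array. Sex and genotype therefore cannot be told apart between the 2 arrays. Pola1 is the 1 member on the X chromosome, and its difference of 0.83 lay near the member median.

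Origin licensing genes included some of the largest differences. The median of the 12 was 0.90, with 5 at least 2-fold higher and 7 within 2-fold. Orc1, the largest subunit of the origin recognition complex and an ATPase, read 391.4 in knockout cells and 94.5 in wild-type cells, 4.45-fold higher after centring. It ranked 71st from the top among 10144 genes, and its other probe set gave 1.55 in place of 2.15 on the log2 scale. Cdc6, the ATPase that joins the complex to recruit the helicase, read 1767.1 against 474.0 in wild type (4.00-fold), from the only probe set it has. Orc6 read 1155.7 against 521.8 in wild type (2.38-fold), and Orc2 622.4 against 382.8 (1.75-fold). The loading factor Cdt1 read 5587.7 against 3304.2 in wild type (0.86, and 0.60 in its other measured probe set). Its inhibitor geminin, Gmnn, read 4676.0 against 2622.0 (0.94).

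Origin recognition subunits fell into a graded series. The 6 subunits ran from 2.15 (Orc1) through 1.25 (Orc6), 0.80 (Orc2) and 0.17 (Orc3) to -0.55 (Orc4) and -0.66 (Orc5), the last 3 being outside the member list. Orc5, an ATPase-family subunit of the core complex, read 703.3 in knockout cells and 1197.4 in wild-type cells. The brightest probe sets of Orc3 and Orc4 were not matched by all others, since the 3 measured for Orc3 ran from -0.29 to 0.17 and the 4 for Orc4 from -0.55 to 0.03. The members Orc1, Orc6 and Orc2 thus read higher on the knockout array while Orc4 and Orc5 of the same complex read lower.

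The 6 subunits of the Mcm2-7 ring were closer together, from 0.62 to 1.39 with a median of 0.77. Mcm5 read 9719.8 in knockout cells and 3975.9 in wild-type cells (2.63-fold), with 1.44 in its other measured probe set. Mcm2 read 3135.4 against 1490.1 in wild type (2.26-fold). The remaining 4 stayed within 2-fold: Mcm7 (0.82), Mcm6 (0.73), Mcm3 (0.63) and Mcm4 (0.62). Probe sets repeated these values closely in Mcm3, whose 5 ran from 0.63 to 0.87, and in Mcm7, whose 4 ran from 0.82 to 0.97. The other measured probe sets of Mcm6 and Mcm4 gave lower values, 0.50 and 0.38. The relatives Mcm8, which acts in recombination repair, and Mcm9 lay at 1.51 and 0.31, the other probe set of Mcm9 being at -0.60.

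Genes that fire licensed origins had a median of 1.03 over 8 genes, with 4 at least 2-fold higher. With probe sets averaged the median was 0.79 (7 genes), and with second probe sets 0.46 (4 genes). Cdc45, a helicase cofactor, read 676.3 in knockout cells and 176.0 in wild-type cells (4.13-fold). Its other probe set read 99.3 against 148.0 in wild type (-0.47), so the direction for Cdc45 rests on its brighter probe set. Of the 4 GINS subunits, Gins2 read 1012.2 against 364.5 in wild type (2.98-fold), with 1.18 in its other probe set, and Gins1 1298.3 against 667.0 (2.09-fold). Gins4 (0.67) and Gins3 (0.59) were within 2-fold. Mcm10, which helps to activate the helicase, read 754.5 in knockout cells and 328.2 in wild-type cells (2.47-fold). The kinase subunits parted in size, with the activator Dbf4 at 0.99 (2614.4 against 1410.1) and the catalytic Cdc7 at 0.31 (869.4 against 750.8), where a second probe set gave 0.08. Firing and fork factors from outside the member list ranged widely: Recql4 (1.26), Wdhd1 (0.95), Ticrr (0.91), Clspn (0.82), Topbp1 (0.75), Tipin (0.90), Timeless (0.61), Donson (0.27), Tonsl (0.15) and Mcmbp (-0.05). Second measured probe sets gave 0.35 for Ticrr, 1.27 for Clspn and 1.40 for Topbp1, and the 3 of Mcmbp ran from -0.50 to -0.05.

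Polymerase and primase genes lay close together. All 8 were between 0.54 and 1.05, with a median of 0.83. The ε subunits Pole (1073.2 in the knockout, 558.5 in wild type) and Pole2 (2623.6, 1356.2) were just over 2-fold higher, at 1.05 each, although the other probe set of Pole2 gave 0.50, under 2-fold. The catalytic primase subunit Prim1 read 3079.4 against 1834.4 in wild type (0.85), Pola1 751.9 against 454.4 (0.83) and Pola2 890.8 against 657.8 (0.54). Prim2, the large primase subunit, lay at 0.75. The catalytic δ subunit Pold1 and its partner Pold2 were nearly equal, at 0.83 and 0.84. The accessory subunits of δ did not share this, since Pold3 was at -0.07, with its 3 probe sets from -0.33 to 0.74, and Pold4 at -0.63 (2692.7 in the knockout, 4468.0 in wild type). The accessory ε subunits Pole4 and Pole3 lay at 0.48 and 0.78, but the 3 probe sets of Pole3 ran from -1.01 to 1.47.

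The clamp Pcna and its loader were higher by unequal amounts. Pcna read 20337.3 in knockout cells and 13861.4 in wild-type cells (0.66). Replication factor C is built of the large subunit Rfc1 and the small subunits Rfc2 to Rfc5, which ran from 0.34 in Rfc1 to 1.78 in Rfc4. Rfc4 read 3122.3 in knockout cells and 973.9 in wild-type cells (3.44-fold), and its other probe set gave 1.92. Rfc3 (1276.0 against 610.0, 2.25-fold) and Rfc5 (1154.3 against 604.0, 2.05-fold) also passed 2-fold, although the other probe set of Rfc3 gave 0.88. Rfc2 (0.68) and Rfc1 (0.34) did not, and the 3 probe sets of each stayed within 0.58 to 0.73 and 0.12 to 0.55. Alternative loaders that share the small subunits were mixed, with the unloader Atad5 at 1.12, Dscc1 at 1.35, Chtf18 at 0.50 and Chtf8 at 0.12.

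**Figure D3:**
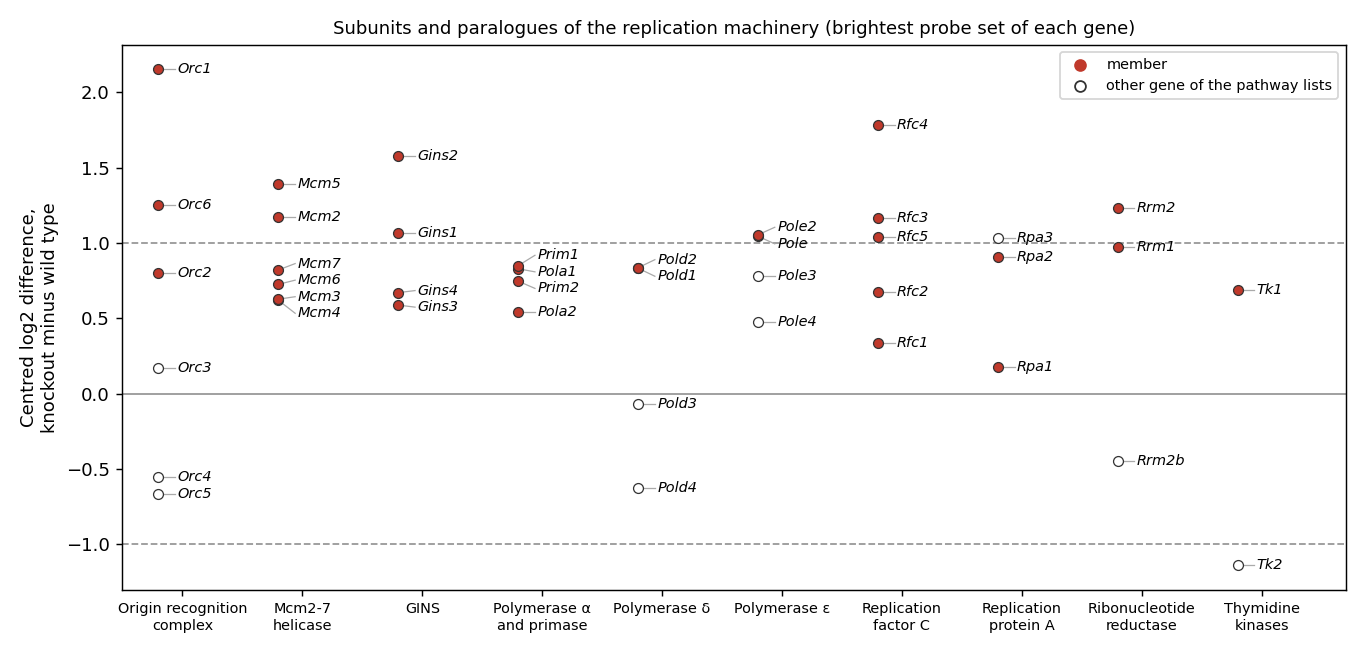
Centred log2 difference, knockout minus wild type, of the brightest probe set of each subunit, by complex or enzyme family (dashed lines mark 2-fold), with filled points for members and open points for other genes of the pathway lists. Subunits of the Mcm2-7 ring lie between 0.62 and 1.39, whereas those of the origin recognition complex run from 2.15 (Orc1) to -0.66 (Orc5).

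Among genes of single-strand binding and lagging-strand maturation the extremes of the whole list stood side by side. Fen1, the flap nuclease that trims Okazaki fragments, read 4698.1 in knockout cells and 1109.2 in wild-type cells, 4.55-fold higher and the largest member difference. Its other probe set gave 2.03 in place of 2.19. Lig1, the ligase that then seals them, read 2749.3 in knockout cells and 1346.0 in wild-type cells (2.19-fold). Rpa1, the large subunit of the single-strand binding protein, had the smallest member difference, 8395.9 against 7959.7 (0.18, and 0.17 in its other probe set). Its partner Rpa2 was at 0.91 and the small subunit Rpa3, outside the member list, at 1.03. Other nucleases of this step were higher too, with Dna2 at 1.49, Exo1 at 0.98 and the 3 ribonuclease H2 subunits between 0.91 and 1.15.

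Of the nucleotide enzymes, Rrm2 alone was measured at 2-fold or more. This small subunit of ribonucleotide reductase read 13458.1 in knockout cells and 6138.0 in wild-type cells (2.35-fold), with its other probe sets at up to 1.61. The large subunit Rrm1 read 3139.2 against 1716.3 in wild type (1.96-fold), although a second probe set gave 0.45. Dut, which removes dUTP, read 6472.1 against 3741.6 (0.89, and 0.30 in its other probe set), and thymidine kinase Tk1 1987.4 against 1322.7 (0.69). Tyms, thymidylate synthase, read 132.3 in knockout cells and 60.4, under the floor, in wild-type cells. Set against the floor it was at least 2.05-fold higher, and its other 3 probe sets were under the floor on both arrays. The median over the 4 measured enzymes was 0.93.

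The last 4 members couple replication to chromatin and repair. Brca1, a homologous recombination factor, read 1233.3 in knockout cells and 689.0 in wild-type cells (0.94). The chromatin assembly subunit Chaf1b (420.7 against 295.5) was at 0.61, and Slbp, which binds histone mRNA, at 0.47 (5046.0 against 3916.6). None of these 3 reached 2-fold. The histone chaperones Asf1a (1.36), Asf1b (1.15) and Nasp (1.18), from outside the member list, did, whereas Supt16 (0.14) and Rbbp4 (0.36) did not. The 3 measured probe sets of Nasp ran from 0.56 to 1.18 and the 4 of Rbbp4 from -0.53 to 0.39.

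Where a gene had several probe sets they mostly repeated each other. Of 103 member probe sets 82 were measured on both arrays, and 81 of the 82 lay above 0, the exception being that of Cdc45. Of the others 15 were under the floor on both arrays, 4 on the wild-type array only and 2 on the knockout array only, namely 1 of Brca1 (59.2 in knockout cells, 79.3 in wild-type cells) and 1 of Chaf1b (40.2 against 71.2). In 28 members with a second measured probe set the technical SD of a difference, from the gap between the 2 brightest, was 0.37, against 0.36 over 4657 genes. In 22 of the 28 the gap was under 0.36. This spread leaves out error between mice, cultures and arrays. Differences of single members around the median, such as 0.83 against 1.05, are inside it, whereas the gap between Fen1 and Rpa1 (2.19 and 0.18) is larger. The 2-fold line runs through a dense stretch of values, with Dbf4 (0.99), Rrm1 (0.97) and Brca1 (0.94) just under it and Rfc5 (1.04), Pole (1.05) and Pole2 (1.05) just over it.

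**Figure D4:**
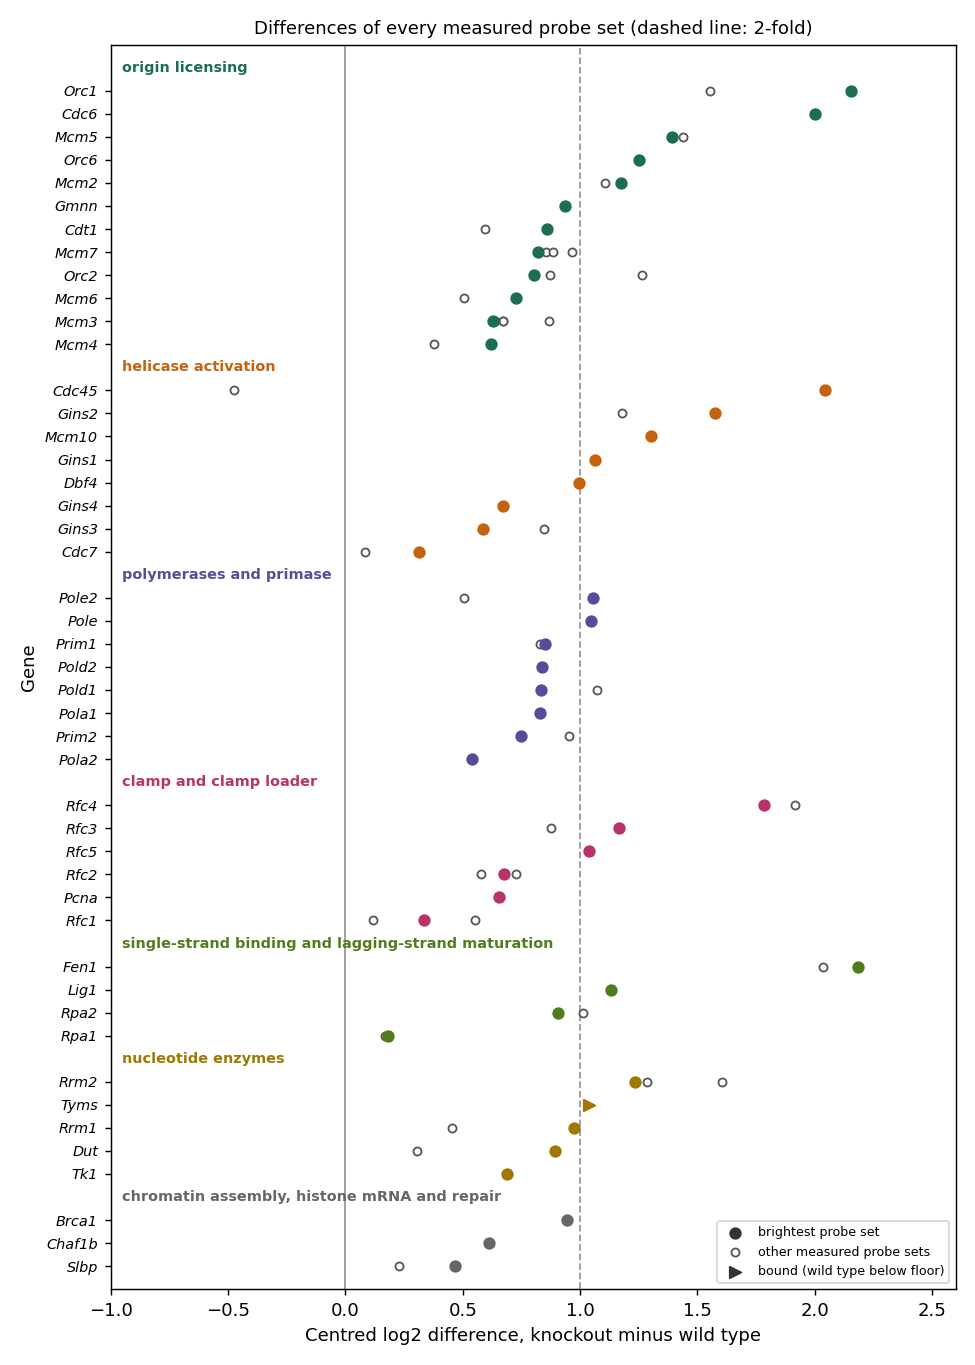
Centred log2 difference, knockout minus wild type, of every measured probe set, with the brightest probe set of each gene filled and the others open, grouped by role (solid line 0, dashed line 2-fold). Of 82 points 81 lie above 0, and the second probe set of Cdc45 lies at -0.47.

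The median differences of the role groups were 1.03 for helicase activation, 0.90 for licensing, 0.93 for nucleotide enzymes, 0.86 for clamp and loader and 0.83 for polymerases, with 1.02 for the 4 lagging-strand genes and 0.61 for the 3 chromatin and repair genes. Roles differed more in spread, since polymerases covered 0.54 to 1.05, licensing 0.62 to 2.15 and lagging-strand genes 0.18 to 2.19. These ranges rest on few genes in groups of unequal size, and without Orc1 and Cdc6 licensing covered 0.62 to 1.39. By E2F letters, 13 measured members with a match had a median of 0.86 and 24 without one had 0.90, with 6 and 8 of them at least 2-fold higher.

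Replisome and fork genes outside the member list showed a similar but wider picture. Of 43 such genes 41 were measured, with a median of 0.78 and 36 above 0. At least 2-fold higher were 12, against 7.15% of all measured genes, and none was at least 2-fold lower, against 4.45%. Highest were the topoisomerase Top1 (10139.2 in the knockout, 3575.0 in wild type, 1.61), Mcm8 (1.51), Dna2 (1.49), Asf1a (1.36) and Dscc1 (1.35). Orc5 (-0.66), Pold4 (-0.63) and Orc4 (-0.55) were lowest, with Pold3 and Mcmbp also below 0.

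Nucleotide synthesis beyond the 5 member enzymes was split. Of 38 listed genes 35 were measured, with a median of 0.24, 24 above 0 and 11 below. By 2-fold or more 4 of the 35 were higher, against 7.15% of all measured genes. Lower by as much were 2, against 4.45%, and 29 were within 2-fold. Cad, the entry enzyme of pyrimidine synthesis, had the highest value and read 1734.2 in knockout cells and 603.9 in wild-type cells (1.62, and 1.69 in its other probe set). CTP synthase Ctps read 656.4 against 283.2 (1.32), while the pyrimidine genes Umps (0.52), Dhodh (0.24) and Uck2 (-0.26) were within 2-fold. The folate enzyme Shmt1 lay at 1.53, and Nme1 at 1.57 but at -0.98 in its other probe set. Several purine synthesis genes differed little, among them Ppat (0.22, but 1.04 in its other probe set), Adsl (0.21), Paics (0.16) and Atic (0.33), with Pfas at 0.74 and Gart at 0.55. Among purine genes below 0 were Adssl1 (-0.61), Adk (-0.49), Adss (-0.28) and Impdh1 (-0.03).

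The lowest values of this list included enzymes that make or remove deoxynucleotides. Tk2, the mitochondrial thymidine kinase, read 574.7 in knockout cells and 1357.9 in wild-type cells (-1.14), against 0.69 for Tk1. Samhd1, which breaks down deoxynucleotides, read 5979.2 in knockout cells and 13774.0 in wild-type cells (-1.10), and its 5 probe sets ran from -1.32 to -0.67. The mitochondrial kinase Dguok was at -0.58. Rrm2b, the reductase subunit used outside S phase, was at -0.45, with its 4 probe sets from -0.57 to 0.48, against 1.24 for Rrm2. The CTP synthase paralogue Ctps2 was at -0.70, against 1.32 for Ctps, neither being a member. Other deoxynucleotide enzymes of the list lay above 0, with the dCTP pyrophosphatase Dctpp1 at 0.74, deoxycytidine kinase Dck at 0.42 and the deaminase Dctd at 0.17.

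**Figure D5:**
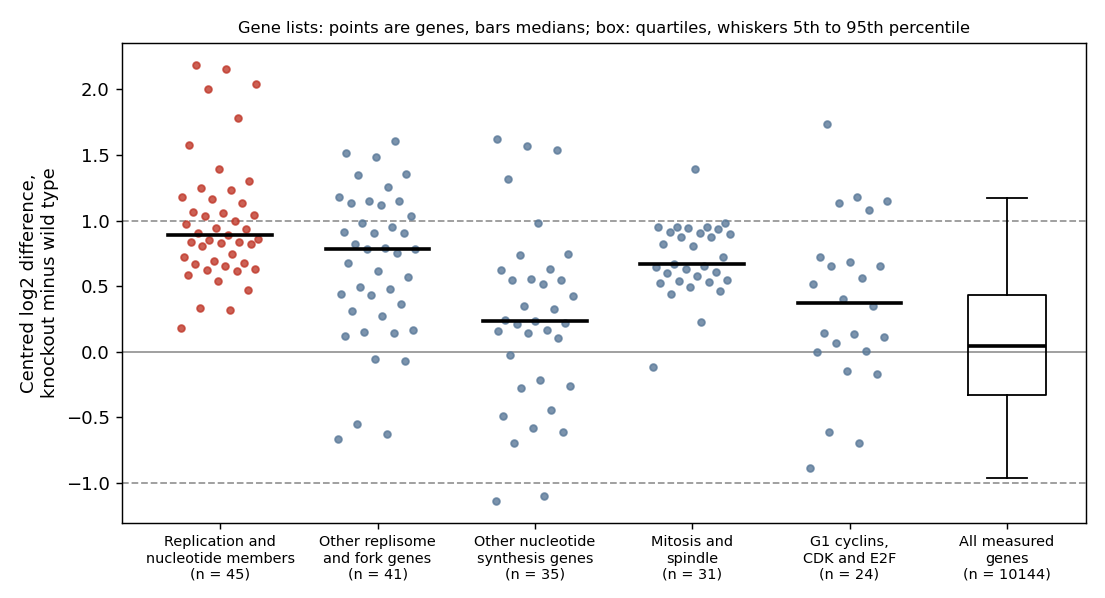
Centred log2 difference, knockout minus wild type, of the measured genes of each list (points, with bars at the medians) and of all 10144 measured genes (box of quartiles, whiskers from the 5th to the 95th percentile, dashed lines 2-fold). Medians are 0.89 for the members, 0.78 for other replisome genes, 0.24 for other nucleotide genes, 0.67 for mitosis, 0.37 for G1 regulators and 0.04 for all genes.

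A pair of neighbouring parts of the cell cycle give the setting. Mitosis and spindle genes had 30 of 31 measured genes above 0 and a median of 0.67. At 1.5-fold 21 of the 31 were higher, against 18.3% of all measured genes. Nuf2 (1.39) alone was at least 2-fold higher, against 7.15% of all measured genes. That count depends on the cut-off, since Cdk1 (0.98), Cdc20 (0.95), Bub1 (0.95) and others lay just under it. With probe sets averaged it was 5 of 31. Mki67 was at 0.82. G1 cyclins, kinases and E2F factors had a median of 0.37 over 24 genes and 5 at least 2-fold higher: Ccne2 (1.73), E2f8 (1.18), Mybl2 (1.15), Ccne1 (1.13) and E2f7 (1.08). The activator E2f1 was at 0.57 and E2f2 at -0.17, with 0.12 in the other probe set of E2f2. The lowest were Rbl2 (-0.88), an Rb family repressor of resting cells, Tfdp2 (-0.70) and Ccnd3 (-0.61). The 4 measured probe sets of Tfdp2 ran from -0.70 to -0.13 and the 3 of Ccnd3 from -2.07 to 0.01. The difference between these lists and the members was not tested.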

How the data were processed

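RNA of 2 samples, 1 knockout and 1 wild type, was labelled from 3 µg total RNA and hybridised to Affymetrix arrays, per the labels' protocols. The authors deposited linear signal intensity, 1 value for each of 45101 probe sets and array. The summarisation software was not given in the sources used here, although after leaving out the outer tails, the mean of the remaining 96% of signals came to 500.004 on each array, as a global scaling gives. The number of arrays limits the precision.

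The platform annotation gave 1 gene symbol to 34945 probe sets, several to 932 and none to 9160, beside 64 control probe sets, and symbols were updated through RefSeq gene identifiers. A probe set at or above the median of both arrays counts as measured, and log2 differences were centred on the median of 20834 such probe sets. A gene under the floor on 1 array has a bound only, against that floor. Promoters came from RefSeq (GRCm38.p6). No test between groups was run with 1 array each, and the procedure was tested on simulated data. Python 3.11.15, numpy 2.4.6, pandas 2.3.3 and statsmodels 0.14.6 were used.

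Members, role groups, pathway lists, marker lists and thresholds were chosen with earlier results of these data known. All members were described. Pathway and comparison lists were described by up to 5 genes each way, by subunits and paralogues of members, and by further genes chosen by no fixed rule. All but the extremes were picked after their values were seen. Alternatives were no centring, quantile normalization, loess (span 0.3), a floor at the 70th percentile, no floor, probe sets averaged, no _x_at, _s_at or _a_at probe sets, the second brightest probe set and, added after seeing the data, centring on hybridisation controls. Of 18 control probe sets added after labelling, the median difference was 0.15, and of 22 poly-A controls added before it, -0.33. The 3′ to 5′ signal ratio of Actb was 1.15 in knockout cells and 1.17 in wild-type cells.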

Additional observations from a re-analysis of the deposited data

How the results depend on the processing

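No paired analysis was possible because there was only 1 sample of either genotype. Over the 9 alternatives the member median stayed between 0.74 and 0.88, and none was at least 2-fold lower. The count at least 2-fold higher was 12 of 45 with centring on hybridisation controls, chosen after seeing the data, 13 of 45 without centring, and between 13 and 18 in the others, except for 9 of 28 with second probe sets, where fewer genes have a value. A value was counted as moved past 0.36, the technical SD, and a count past 1.5 times. With second probe sets the medians were 0.46 for helicase activation (4 genes), 0.45 for nucleotide enzymes (3) and 0.23 for chromatin and repair (1), and other replisome genes had a median of 0.40 with 5 of 21 at least 2-fold higher. G1 regulators then had 3 of 15, and Cdc45 reversed to -0.47. With the floor at the 70th percentile, other nucleotide genes had 2 of 30 and G1 regulators 2 of 18 at least 2-fold higher, fewer genes being measured. The members Orc1, Cdc45, Gins3 and Chaf1b were no longer measured at that floor, so it gives no check of their differences. With probe sets averaged, which takes in signals under the floor, chromatin and repair had a median of -0.038, mitosis genes had 5 of 31 at least 2-fold higher, and Rrm1 (-0.51), Chaf1b (-0.055), Slbp (-0.038) and Cdt1 (-0.0087) lay below 0. On hybridisation controls 7 of 41 other replisome genes and 2 of 24 G1 regulators were at least 2-fold higher. That centring put the median of all measured genes at -0.11, in place of 0.04. After quantile normalization Rpa1 lay at -0.011. The cause of these changes was not tested, also where a smaller number of genes is given. No alternative replaces a second array, and differences near 0 or near 2-fold can change side with the scaling.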
